A study of Mus musculus with 4 samples.

Results

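Chromatin regulators and DNA methylation enzymes were followed in mouse CD4+ T cells with and without the repressor CIC, at rest and after stimulation. The set holds 50 genes, named by what their products do and matched by gene symbol among the 23719 named genes of the deposited tables. All 50 were found, each on 1 locus, and all 50 had an FPKM of at least 1 in 1 or more libraries, FPKM being the fragments mapped to a transcript, scaled to its length and to the size of its library. The groups were cKO cells (Cic f/f; Cd4-Cre) and WT cells (Cic f/f), each on day 3 of stimulation by antibodies against CD3 and CD28 fixed to the plate (2 μg/ml) and on day 0, with 1 RNA-seq library in each of the 4 groups. All came from spleens of C57BL/6J mice aged 10 to 12 weeks. WT and cKO mice both carry floxed Cic alleles, and cKO mice also carry Cre under Cd4 control, which acts in T cells from the thymus onwards. The sample labels give the sorted day 0 cells the surface phenotype CD4+CD25-CD44hiCD62Llo under the name naïve, whereas the study's methods give low CD44 and high CD62L. How many mice stood behind a library is not given in the sources used here.

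DNA methylation is copied at each cell division by DNMT1, which UHRF1 brings to newly replicated DNA, and new nucleosomes are laid down behind the replication fork by CAF-1 and ASF1 histone chaperones. Polycomb complexes, heterochromatin proteins, deacetylases and acetyltransferases set which genes can be read, and ATP-dependent remodellers move or evict nucleosomes. Naïve T cells rarely divide, and a stimulated T cell enters rapid division.

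With 1 library per group no replicate error can be given and no test was possible, and every value below describes these libraries. A log2 ratio was taken of FPKM + 0.1, and a gene counted as measured where 1 of the 2 libraries reached an FPKM of 1. "Rose" and "fell" are used only of a log2 ratio over 1.5 in size, the size rule of the study without its p-value. The totals of reads were not given, so the depth is unknown. From the steps between the lowest FPKM values, 1 read was worth 0.819 times as much in cKO as in WT cells on day 0 and 0.943 times as much on day 3, which is what the files show of the depths. T-cell markers summed to between 1045 and 1267 FPKM in the 4 libraries. The 6 markers of dividing cells summed to 806 FPKM in cKO and 828 FPKM in WT cells on day 3, against 26.1 FPKM in cKO and 36.7 FPKM in WT cells on day 0. The 7 markers of macrophages and monocytes summed to 2.70 FPKM in cKO and 3.27 FPKM in WT cells on day 3, with C1qa, C1qb and Emr1 at 0 in both, against 71.6 FPKM in cKO and 233 FPKM in WT cells on day 0. The 6 neutrophil markers came to under 1 FPKM on day 3 in both genotypes, against 30.9 FPKM in cKO and 60.97 FPKM in WT cells on day 0. The 7 B-cell markers summed to 59.1 FPKM in cKO and 46.9 FPKM in WT cells on day 3, against 42.6 FPKM in cKO and 20.3 FPKM in WT cells on day 0, none of them at 0 in any library. The part that these other cells or the dividing state play in the ratios below was not tested. Cic itself had 12.2 FPKM on day 3 and 24.9 FPKM on day 0 in cKO cells, against 17.8 FPKM on day 3 and 25.4 FPKM on day 0 in WT cells; the values cover the whole locus and do not check the deletion. Etv5, a known target of CIC, stood at 5.85 FPKM on day 3 and 5.95 FPKM on day 0 in cKO cells, against 1.49 FPKM on day 3 and 0.706 FPKM on day 0 in WT cells.

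For members chosen by role, the sequence around the gene start is shown, so that the genes of the replication fork can be set beside a Polycomb pair. RefSeq promoter windows of build GRCm38.p6, running from 250 bases before to 50 bases after the start, were found for 43 of the 50 members, 1 window per gene. Of these 43 windows, 39 lay within the deposited locus of the gene or close to its ends. A gene can have several starts, and whether the start of a window is the one used in these cells was not tested. The 8 windows below belong to the 6 replication-coupled members and to the paired Polycomb enzymes Ezh2 and Ezh1, whose day 3 to day 0 ratios had opposite signs. Capitals mark CCAAT boxes (CCAAT, or ATTGG where the box lies on the other strand), the motif bound by the factor NF-Y, and E2F sites, searched as TTTCGCGC, TTTGGCGC, TTTCCCGC or TTTGCCGC on either strand. E2F factors drive genes needed for DNA replication. Dnmt1 lies at chr9:20959839-20960138 (- strand), Uhrf1 at chr17:56303087-56303386 (+ strand), Hells at chr19:38930740-38931039 (+ strand), Asf1b at chr8:83955444-83955743 (+ strand), Chaf1a at chr17:56040166-56040465 (+ strand), Chaf1b at chr16:93883651-93883950 (+ strand), Ezh2 at chr6:47594981-47595280 (- strand) and Ezh1 at chr11:101226414-101226713 (- strand), each span being that of the window.
Dnmt1: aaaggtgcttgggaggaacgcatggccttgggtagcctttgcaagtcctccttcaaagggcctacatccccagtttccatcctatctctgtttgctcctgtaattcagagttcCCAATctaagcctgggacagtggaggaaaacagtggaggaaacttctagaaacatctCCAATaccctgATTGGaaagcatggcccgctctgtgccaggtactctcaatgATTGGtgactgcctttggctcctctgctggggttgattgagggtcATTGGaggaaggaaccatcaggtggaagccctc
Uhrf1: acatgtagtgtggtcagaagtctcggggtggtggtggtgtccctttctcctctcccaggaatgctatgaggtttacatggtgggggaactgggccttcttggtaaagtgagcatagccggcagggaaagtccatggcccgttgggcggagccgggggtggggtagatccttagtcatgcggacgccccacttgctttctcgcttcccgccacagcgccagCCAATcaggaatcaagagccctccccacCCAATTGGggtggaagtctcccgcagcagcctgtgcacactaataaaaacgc
Hells: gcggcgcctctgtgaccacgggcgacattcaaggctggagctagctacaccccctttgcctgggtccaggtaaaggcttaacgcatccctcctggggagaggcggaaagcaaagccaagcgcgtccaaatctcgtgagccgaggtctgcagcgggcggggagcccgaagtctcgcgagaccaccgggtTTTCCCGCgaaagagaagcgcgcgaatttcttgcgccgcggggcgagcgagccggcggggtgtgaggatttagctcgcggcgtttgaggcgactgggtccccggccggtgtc
Asf1b: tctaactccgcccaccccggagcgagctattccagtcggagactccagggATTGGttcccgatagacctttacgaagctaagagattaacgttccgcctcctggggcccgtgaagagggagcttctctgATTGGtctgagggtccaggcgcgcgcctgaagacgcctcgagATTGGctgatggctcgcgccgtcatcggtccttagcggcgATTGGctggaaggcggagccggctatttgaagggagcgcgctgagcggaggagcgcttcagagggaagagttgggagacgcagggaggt
Chaf1a: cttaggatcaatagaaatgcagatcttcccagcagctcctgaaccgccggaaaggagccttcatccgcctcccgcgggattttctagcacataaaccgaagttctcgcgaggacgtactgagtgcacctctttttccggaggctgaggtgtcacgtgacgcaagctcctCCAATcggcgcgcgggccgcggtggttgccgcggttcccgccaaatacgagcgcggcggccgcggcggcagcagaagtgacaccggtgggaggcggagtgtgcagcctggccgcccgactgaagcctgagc
Chaf1b: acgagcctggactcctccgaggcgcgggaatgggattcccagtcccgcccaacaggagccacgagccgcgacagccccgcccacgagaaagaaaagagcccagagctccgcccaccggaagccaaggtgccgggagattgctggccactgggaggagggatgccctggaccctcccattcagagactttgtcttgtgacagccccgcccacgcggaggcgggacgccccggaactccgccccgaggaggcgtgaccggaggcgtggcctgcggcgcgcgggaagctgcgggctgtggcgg
Ezh2: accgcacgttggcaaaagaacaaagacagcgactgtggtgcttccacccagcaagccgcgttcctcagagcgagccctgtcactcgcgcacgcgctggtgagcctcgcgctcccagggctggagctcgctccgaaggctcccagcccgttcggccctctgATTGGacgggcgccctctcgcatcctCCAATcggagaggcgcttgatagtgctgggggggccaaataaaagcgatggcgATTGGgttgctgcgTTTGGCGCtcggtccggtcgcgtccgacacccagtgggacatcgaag
Ezh1: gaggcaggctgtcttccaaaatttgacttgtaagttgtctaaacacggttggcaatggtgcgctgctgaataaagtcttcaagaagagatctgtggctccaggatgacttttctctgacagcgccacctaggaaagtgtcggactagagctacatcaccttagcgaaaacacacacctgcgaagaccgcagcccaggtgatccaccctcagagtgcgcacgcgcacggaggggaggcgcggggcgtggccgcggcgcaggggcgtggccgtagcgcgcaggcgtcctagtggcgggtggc
The Dnmt1 window holds 5 CCAAT boxes, the Asf1b window 4, those of Ezh2 and Uhrf1 3 each, of which a pair in Uhrf1 overlap, and that of Chaf1a 1. An E2F site stands in Hells at base -62 and in Ezh2 at base 3, counted with the start as 0. The windows of Chaf1b and Ezh1 hold neither motif as searched. Across the members with a window, 18 of 43 (41.9%) held a CCAAT box, against 38.0% of all 27025 windows in the table. Among the 12 members that rose in both genotypes the share was 9 of 12 (75%), and among the other 31 it was 9 of 31 (29.0%). Since these 12 were set apart by their measured ratios, the shares are a description with no test. E2F sites were found in Ezh2, Hells, Kat2a and Suz12, 4 of 43 members (9.30%), against 2.33% of all windows. The octamers TGAATGAA and TGAATGGA, which CIC binds, were found on either strand in the windows of Hdac7 and Suv39h2, 2 of 43 (4.65%), against 2.47% of all windows. The windows of the members had a median GC content of 64.3%, against 52.7% for all windows, and the Dnmt1 window had 51.3%. A match in letters is not evidence of a bound site.

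The same genes rose after stimulation in both genotypes. Between day 3 and day 0, 12 of the 50 members rose in cKO cells, where 17.1% of the 11526 genes measured did so, and 12 rose in WT cells, where 18.8% of 11752 did so. They were the same 12 genes, namely the 6 replication-coupled members, Ezh2, Cbx5, Suv39h1, Prmt1, Prmt5 and Smarcc1. In cKO cells 2 members fell, against a background of 6.99% of genes, and in WT cells 4 fell, against 8.98%. The share of members that rose was thus 24% in each genotype, and the share that fell 4.0% in cKO and 8.0% in WT cells, none far from the shares of all genes. The median gene had itself a log2 ratio of 0.36 in cKO and 0.40 in WT cells, so a member with a smaller positive ratio stood below the median gene. On that footing 27 of 50 members were above the median gene in each genotype, and with ratios centred on it 9 rose and 3 fell in cKO cells and 9 rose and 5 fell in WT cells. The day 3 to day 0 ratio had opposite signs in cKO and WT cells in 1 of 50 members, and in 9.41% of the 11307 genes measured in both. In bulk RNA, more cells of a type and more RNA per cell cannot be told apart.

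**Figure D1:**
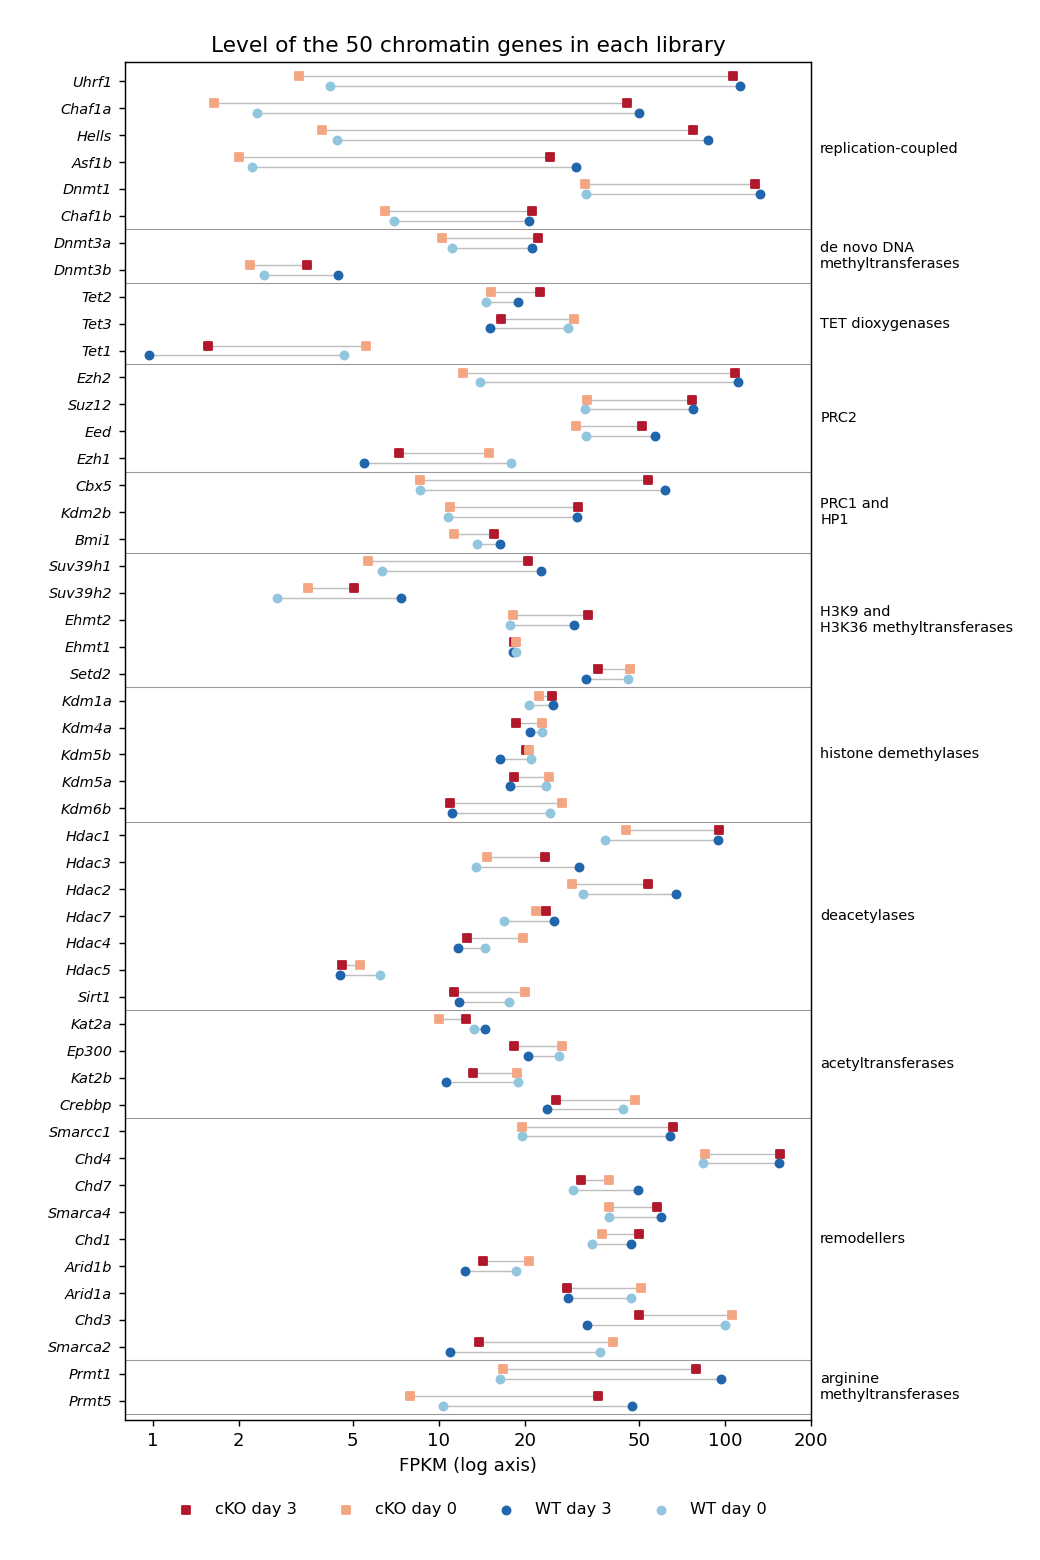
FPKM (log axis) of each of the 50 members, grouped by role and, within a role, by the WT ratio of day 3 to day 0. Squares are cKO and circles WT libraries, dark for day 3 and pale for day 0, 1 library each, and a grey line joins the 2 days of a genotype. For all 6 replication-coupled genes the day 3 symbols lie to the right of the day 0 symbols, and for Tet1, Ezh1, Smarca2 and Chd3 they lie to the left.

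The replication-coupled members formed the group with the highest median ratio, although Dnmt1 and Chaf1b lay below Ezh2, Cbx5, Prmt1 and Prmt5 in both genotypes. Dnmt1, the maintenance DNA methyltransferase, had 127 FPKM on day 3 and 32.5 FPKM on day 0 in cKO cells and 132 FPKM on day 3 and 32.6 FPKM on day 0 in WT cells. Uhrf1, which recruits DNMT1 to hemimethylated DNA, had 107 FPKM on day 3 and 3.25 FPKM on day 0 in cKO cells and 113 FPKM on day 3 and 4.16 FPKM on day 0 in WT cells. Hells, a remodeller needed for full DNA methylation, had 77.3 FPKM on day 3 and 3.92 FPKM on day 0 in cKO cells and 87.5 FPKM on day 3 and 4.41 FPKM on day 0 in WT cells. All 3 were among the 7 most abundant members on day 3. In the order of the 50 members on day 0, Dnmt1 was already number 12 in cKO and 11 in WT cells. Uhrf1 was then number 47 in cKO and 46 in WT cells, and Hells number 45 in both. The log2 ratio of day 3 to day 0 was 1.97 in cKO and 2.02 in WT cells for Dnmt1, 5.0 in cKO and 4.73 in WT cells for Uhrf1, and 4.27 in cKO and 4.28 in WT cells for Hells. Uhrf1 had the highest ratio of all 50 members in each genotype, an FPKM 32.9 times as high on day 3 as on day 0 in cKO cells and 27.1 times in WT cells. Dnmt1 had the highest resting level of the 6 genes and a smaller ratio than Uhrf1 or Hells.

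The histone chaperones of the replication fork moved the same way. Chaf1a, the large subunit of CAF-1, had 45.4 FPKM on day 3 and 1.64 FPKM on day 0 in cKO cells and 49.95 FPKM on day 3 and 2.31 FPKM on day 0 in WT cells. Chaf1b, the middle subunit, had 21.2 FPKM on day 3 and 6.48 FPKM on day 0 in cKO cells and 20.7 FPKM on day 3 and 6.996 FPKM on day 0 in WT cells. Asf1b, which hands histones H3 and H4 to CAF-1, had 24.4 FPKM on day 3 and 2.004 FPKM on day 0 in cKO cells and 30.2 FPKM on day 3 and 2.23 FPKM on day 0 in WT cells. Each was higher on day 3 than on day 0 in both genotypes, with log2 ratios of 4.70 in cKO and 4.37 in WT cells for Chaf1a, 1.70 in cKO and 1.55 in WT cells for Chaf1b, and 3.54 in cKO and 3.70 in WT cells for Asf1b. The order of the 2 CAF-1 subunit genes differed between the days, with Chaf1a below Chaf1b at rest and above it after stimulation. The Chaf1a locus overlaps that of Ubxn6, and reads in the overlap may be divided wrongly. Together the 6 genes had a median log2 ratio of 3.91 in cKO and 3.99 in WT cells, against 0.23 in cKO and 0.32 in WT cells for the other 44 members. The difference of the medians was 3.68 in cKO and 3.67 in WT cells. On day 3 they made up 21.2% of the summed FPKM of all 50 members in cKO and 21.97% in WT cells, against 4.27% in cKO and 4.69% in WT cells on day 0.

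S phase genes outside the set moved with them. Of 20 such genes, which act in DNA synthesis and origin firing, 18 rose in cKO and 19 in WT cells and none fell, with a median log2 ratio of 3.23 in cKO and 2.97 in WT cells. Rrm2, a subunit of ribonucleotide reductase, had 4.64 in cKO and 4.79 in WT cells, and Cdc45, part of the replicative helicase, had 5.29 in cKO and 4.44 in WT cells. The replication-coupled members thus lay within the span of the S phase genes, beside the rise of the dividing-cell markers given above. Whether they moved more than these markers of division was not tested. For this list and the next, the background is that 17.1% of all genes measured rose in cKO and 18.8% in WT cells. Among 11 other histone chaperones, 3 rose in each genotype and none fell. These were Nap1l1, a chaperone of histones H2A and H2B (2.69 in cKO and 2.53 in WT cells), Ssrp1, a subunit of FACT whose locus carries another gene name too (2.03 in cKO and 2.08 in WT cells), and Nasp, a chaperone of histone H3 (2.02 in cKO and 2.07 in WT cells). Here and below, Nasp and each gene outside the set that is not 1 of the 2 with the largest WT ratios of its list was named after its values were seen.

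De novo DNA methyltransferases did not pass the size rule. Dnmt3a had 22.2 FPKM on day 3 and 10.3 FPKM on day 0 in cKO cells and 21.1 FPKM on day 3 and 11.1 FPKM on day 0 in WT cells. Dnmt3b had 3.46 FPKM on day 3 and 2.19 FPKM on day 0 in cKO cells and 4.44 FPKM on day 3 and 2.46 FPKM on day 0 in WT cells. Both were higher on day 3 in each genotype, with log2 ratios between 0.64 and 1.11, and Dnmt3b stayed the lower of the 2 in every library. Dnmt1 exceeded Dnmt3a 5.73 times in cKO and 6.25 times in WT cells on day 3, against 3.17 times in cKO and 2.94 times in WT cells on day 0.

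The TET dioxygenases, which oxidise methylated cytosine, differed among themselves. Tet1 fell, with 1.56 FPKM on day 3 and 5.58 FPKM on day 0 in cKO cells and 0.972 FPKM on day 3 and 4.68 FPKM on day 0 in WT cells and log2 ratios of -1.77 in cKO and -2.16 in WT cells, the lowest of all members in both genotypes. Tet2 had 22.5 FPKM on day 3 and 15.2 FPKM on day 0 in cKO cells and 18.9 FPKM on day 3 and 14.7 FPKM on day 0 in WT cells. Tet3 had 16.5 FPKM on day 3 and 29.8 FPKM on day 0 in cKO cells and 15.1 FPKM on day 3 and 28.4 FPKM on day 0 in WT cells. Tet3 was the most abundant of the family at rest and Tet2 after stimulation, in both genotypes. The Tet3 locus overlaps those of B230319C09Rik, of Bola3 with Mob1a, and of Mir6374, so reads there may be divided wrongly. The ratio of Tet3 to Tet2 was 0.732 in cKO and 0.800 in WT cells on day 3, against 1.96 in cKO and 1.93 in WT cells on day 0. Tet1 was the lowest of the 3 in every library, and its level on day 3 was near the FPKM minimum. Among 16 measured partners of DNA methylation outside the set, 3 rose in each genotype. This is near the share of all genes that rose, 17.1% in cKO and 18.8% in WT cells. Of these 3, Ahcy, which clears the methylation product S-adenosylhomocysteine, stood at 2.86 in cKO and 3.03 in WT cells. The others were Mbd3, of the NuRD complex, at 2.0 in cKO and 1.94 in WT cells, on a locus with another gene name, and Tdg, a DNA glycosylase that acts after TET enzymes, at 1.87 in cKO and 1.83 in WT cells. Gadd45a, a stress-response gene linked to demethylation, fell in WT cells (-1.90, against -1.02 in cKO cells).

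The genes for the catalytic subunits of the Polycomb repressive complex PRC2 had day 3 to day 0 ratios of opposite sign. Only RNA was measured, so the make-up of the complex is not shown. Ezh2, the histone H3K27 methyltransferase of dividing cells, had 108 FPKM on day 3 and 12.1 FPKM on day 0 in cKO cells and 111 FPKM on day 3 and 13.9 FPKM on day 0 in WT cells. Ezh1, its paralogue in resting cells, had 7.27 FPKM on day 3 and 15.01 FPKM on day 0 in cKO cells and 5.49 FPKM on day 3 and 17.9 FPKM on day 0 in WT cells. Ezh2 was far above Ezh1 in both day 3 libraries and somewhat below it in both day 0 libraries. Ezh2 rose, with a log2 ratio of 3.15 in cKO and 2.99 in WT cells, while the ratio of Ezh1 was -1.04 in cKO cells, under the size threshold, and -1.68 in WT cells, where it fell. The FPKM of Ezh2 was 14.9 times that of Ezh1 in cKO and 20.2 times in WT cells on day 3, against 0.808 times in cKO and 0.777 times in WT cells on day 0. In the order of the 50 members, Ezh2 was number 3 in cKO and 4 in WT cells on day 3, against 34 in cKO and 33 in WT cells on day 0. The Ezh1 locus overlaps that of Cntnap1. The core subunits had smaller ratios. Eed, which reads the H3K27 mark, had 51.2 FPKM on day 3 and 30.2 FPKM on day 0 in cKO cells and 56.7 FPKM on day 3 and 32.8 FPKM on day 0 in WT cells. Suz12, the scaffold, had 76.7 FPKM on day 3 and 32.99 FPKM on day 0 in cKO cells and 77.3 FPKM on day 3 and 32.4 FPKM on day 0 in WT cells. Both were higher on day 3, Eed with a log2 ratio of 0.76 in cKO and 0.79 in WT cells and Suz12 with 1.22 in cKO and 1.25 in WT cells, none past the size threshold.

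Among readers of repressive marks, Cbx5, the heterochromatin protein HP1 alpha, rose. It had 53.9 FPKM on day 3 and 8.63 FPKM on day 0 in cKO cells and 61.8 FPKM on day 3 and 8.61 FPKM on day 0 in WT cells, with log2 ratios of 2.63 in cKO and 2.83 in WT cells. Kdm2b, which recruits a variant PRC1 to CpG islands, had 30.7 FPKM on day 3 and 10.98 FPKM on day 0 in cKO cells and 30.5 FPKM on day 3 and 10.8 FPKM on day 0 in WT cells, and its log2 ratios of 1.47 in cKO and 1.49 in WT cells lay just under the threshold. Bmi1, a core PRC1 subunit, had 15.5 FPKM on day 3 and 11.3 FPKM on day 0 in cKO cells and 16.3 FPKM on day 3 and 13.6 FPKM on day 0 in WT cells, close to the median gene. Of 21 other Polycomb and HP1 genes 5 rose and 1 fell in cKO cells, and 6 rose and 1 fell in WT cells. Among all genes measured 17.1% rose and 6.99% fell in cKO cells, and 18.8% rose and 8.98% fell in WT cells. Phf1, an accessory subunit of PRC2, had the lowest ratio of the 21, at -2.27 in cKO and -3.07 in WT cells. Cbx3 (HP1 gamma, 1.92 in cKO and 1.93 in WT cells), Cbx1 (HP1 beta, 1.76 in cKO and 1.67 in WT cells), Rbbp7, a histone-binding subunit of PRC2 (1.85 in cKO and 1.91 in WT cells), Phf19, another accessory subunit (2.36 in cKO and 1.84 in WT cells), and Pcgf5, a PRC1 subunit (1.83 in cKO and 1.65 in WT cells), rose in both genotypes, and Pcgf1, another PRC1 subunit, rose in WT cells (1.72, against -0.10 in cKO cells).

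The H3K9 methyltransferases differed within their pairs. Suv39h1, which marks pericentric heterochromatin, had 20.6 FPKM on day 3 and 5.65 FPKM on day 0 in cKO cells and 22.7 FPKM on day 3 and 6.33 FPKM on day 0 in WT cells, and rose with log2 ratios of 1.85 in cKO and 1.82 in WT cells. Its paralogue Suv39h2 had 5.06 FPKM on day 3 and 3.51 FPKM on day 0 in cKO cells and 7.40 FPKM on day 3 and 2.71 FPKM on day 0 in WT cells. The Suv39h2 ratio was 0.52 in cKO and 1.41 in WT cells, with a lower level in cKO than in WT cells on day 3 and a higher one on day 0. The Suv39h2 locus overlaps that of Dclre1c. Ehmt2 (G9a) had 33.2 FPKM on day 3 and 18.1 FPKM on day 0 in cKO cells and 29.6 FPKM on day 3 and 17.8 FPKM on day 0 in WT cells, and its partner Ehmt1 (GLP) had 18.4 FPKM on day 3 and 18.5 FPKM on day 0 in cKO cells and 18.2 FPKM on day 3 and 18.7 FPKM on day 0 in WT cells. Ehmt1 had the smallest ratios in size of all 50 members, at log2 values of -0.015 in cKO and -0.039 in WT cells. Setd2, which trimethylates H3K36, had 36.04 FPKM on day 3 and 46.4 FPKM on day 0 in cKO cells and 32.6 FPKM on day 3 and 45.7 FPKM on day 0 in WT cells. In cKO cells, where 17.1% of all genes rose and 6.99% fell, 2 of 18 other histone methyltransferases rose and 1 fell. In WT cells, where 18.8% rose and 8.98% fell, 3 of these 18 methyltransferases rose and 2 fell. The highest in WT cells was Whsc1 (NSD2), an H3K36 dimethyltransferase, at 2.77 in cKO and 2.74 in WT cells. Smyd2 rose as well (2.48 in cKO and 1.83 in WT cells), and Setd8, the H4K20 monomethyltransferase, rose in WT cells (1.78, against 1.49 in cKO cells). Setd1b, an H3K4 methyltransferase, fell in both (-1.71 in cKO and -1.55 in WT cells), and Kmt2c, another, fell in WT cells (-1.54, against -1.32 in cKO cells).

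None of the 5 histone demethylases of the set passed the size rule. Beside them, 17.1% of all genes rose and 6.99% fell in cKO cells, and 18.8% rose and 8.98% fell in WT cells. For 5 genes, a count of none says little beside these shares. Kdm6b, which removes methyl groups from H3K27, had 10.98 FPKM on day 3 and 26.97 FPKM on day 0 in cKO cells and 11.2 FPKM on day 3 and 24.5 FPKM on day 0 in WT cells and the lowest ratios of its role, -1.29 in cKO and -1.13 in WT cells. Its locus is shared with Cyb5d1 and Tmem88, so this value may not be that of Kdm6b alone. Kdm1a (LSD1) had 24.8 FPKM on day 3 and 22.4 FPKM on day 0 in cKO cells and 25.1 FPKM on day 3 and 20.7 FPKM on day 0 in WT cells, and Kdm4a, an H3K9 demethylase, had 18.6 FPKM on day 3 and 23.02 FPKM on day 0 in cKO cells and 20.8 FPKM on day 3 and 23.01 FPKM on day 0 in WT cells. The H3K4 demethylases had similar levels. Kdm5a had 18.4 FPKM on day 3 and 24.2 FPKM on day 0 in cKO cells and 17.8 FPKM on day 3 and 23.7 FPKM on day 0 in WT cells, and Kdm5b had 20.2 FPKM on day 3 and 20.7 FPKM on day 0 in cKO cells and 16.4 FPKM on day 3 and 21.00 FPKM on day 0 in WT cells. Of 13 other demethylases none rose in either genotype and 1 fell, Kdm7a in WT cells (-1.65, against -1.35 in cKO cells).

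No deacetylase of the set passed the size rule, which says little for so few genes. As background, 17.1% of all genes rose and 6.99% fell in cKO cells, and 18.8% rose and 8.98% fell in WT cells. The class I enzymes were higher on day 3 in both genotypes. Hdac1 had 95.6 FPKM on day 3 and 44.97 FPKM on day 0 in cKO cells and 94.3 FPKM on day 3 and 38.01 FPKM on day 0 in WT cells. Hdac2 had 53.8 FPKM on day 3 and 29.1 FPKM on day 0 in cKO cells and 67.4 FPKM on day 3 and 31.8 FPKM on day 0 in WT cells. Hdac3, the catalytic subunit of NCoR complexes, had 23.5 FPKM on day 3 and 14.8 FPKM on day 0 in cKO cells and 30.9 FPKM on day 3 and 13.4 FPKM on day 0 in WT cells. Their log2 ratios ran from 0.66 to 1.09 in cKO and from 1.08 to 1.31 in WT cells. Of the class IIa enzymes, which shuttle between nucleus and cytoplasm, Hdac4 and Hdac5 were lower on day 3, and Hdac7 was higher in both genotypes, with log2 ratios of 0.12 in cKO cells, under the median gene, and 0.58 in WT cells, above it. Hdac4 had 12.5 FPKM on day 3 and 19.7 FPKM on day 0 in cKO cells and 11.6 FPKM on day 3 and 14.5 FPKM on day 0 in WT cells. Hdac5 had 4.60 FPKM on day 3 and 5.31 FPKM on day 0 in cKO cells and 4.52 FPKM on day 3 and 6.22 FPKM on day 0 in WT cells. It was the least abundant deacetylase of the set in every library. Hdac7, the class IIa enzyme best known from thymocytes, had 23.8 FPKM on day 3 and 21.9 FPKM on day 0 in cKO cells and 25.3 FPKM on day 3 and 16.9 FPKM on day 0 in WT cells. Sirt1, an NAD-dependent deacetylase, had 11.3 FPKM on day 3 and 20.1 FPKM on day 0 in cKO cells and 11.7 FPKM on day 3 and 17.6 FPKM on day 0 in WT cells, with the lowest ratios of its role at -0.82 in cKO and -0.58 in WT cells. Of the other deacetylases and their corepressors none rose. In cKO cells 2 of 14 measured fell, Sirt5 (-1.82, against -1.18 in WT cells) and Hdac9 (-2.29, not measured in WT cells), and in WT cells none of 13. Hdac9 was near the FPKM minimum, with 0.292 FPKM on day 3 and 1.81 FPKM on day 0 in cKO cells. In WT cells it had 0.106 FPKM on day 3 and 0.907 FPKM on day 0. It was thus lower on day 3 in both genotypes, and only the FPKM minimum of 1 kept it out of the WT count.

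Of the 4 acetyltransferases 3 were lower on day 3, none past the size threshold. Crebbp had 25.6 FPKM on day 3 and 48.5 FPKM on day 0 in cKO cells and 23.8 FPKM on day 3 and 44.1 FPKM on day 0 in WT cells, with log2 ratios of -0.92 in cKO and -0.88 in WT cells, the lowest of the role. Its paralogue Ep300 (p300) had 18.3 FPKM on day 3 and 26.9 FPKM on day 0 in cKO cells and 20.4 FPKM on day 3 and 26.4 FPKM on day 0 in WT cells. Kat2b (PCAF) had 13.2 FPKM on day 3 and 18.8 FPKM on day 0 in cKO cells and 10.6 FPKM on day 3 and 18.95 FPKM on day 0 in WT cells, and Kat2a (GCN5) had 12.4 FPKM on day 3 and 10.05 FPKM on day 0 in cKO cells and 14.5 FPKM on day 3 and 13.3 FPKM on day 0 in WT cells. Kat2a was below Kat2b at rest in both genotypes, and the ratio of Kat2a to Kat2b was 0.941 in cKO and 1.37 in WT cells on day 3, against 0.534 in cKO and 0.701 in WT cells on day 0. Of 13 other acetyltransferases and acetyl-lysine readers 1 rose, beside 17.1% of all genes in cKO and 18.8% in WT cells. This was Hat1, at 2.21 in cKO and 2.36 in WT cells, whose product acetylates newly made histone H4.

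The remodellers held the most abundant member of each library, and the order of Chd4 and Chd3 differed between the days. Chd4, the ATPase of NuRD, had 156 FPKM on day 3 and 85.3 FPKM on day 0 in cKO cells and 154 FPKM on day 3 and 83.7 FPKM on day 0 in WT cells. Chd3, its paralogue, had 49.9 FPKM on day 3 and 106 FPKM on day 0 in cKO cells and 32.9 FPKM on day 3 and 100.3 FPKM on day 0 in WT cells. Chd3 was the most abundant member on day 0 and Chd4 on day 3, in both genotypes. The ratio of Chd4 to Chd3 was 3.12 in cKO and 4.68 in WT cells on day 3, against 0.804 in cKO and 0.835 in WT cells on day 0. Chd3 fell in WT cells, with a log2 ratio of -1.60, and had -1.09 in cKO cells, short of the threshold. In the SWI/SNF family, Smarca4 (BRG1) had 57.9 FPKM on day 3 and 39.3 FPKM on day 0 in cKO cells and 59.8 FPKM on day 3 and 39.2 FPKM on day 0 in WT cells. Smarca2 (BRM), the alternative ATPase, had 13.9 FPKM on day 3 and 40.7 FPKM on day 0 in cKO cells and 10.9 FPKM on day 3 and 36.5 FPKM on day 0 in WT cells. The 2 ATPases were level at rest, and Smarca4 was 4.18 times as high as Smarca2 in cKO and 5.46 times in WT cells on day 3. Smarca2 fell in both genotypes, with log2 ratios of -1.55 in cKO and -1.73 in WT cells.

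**Figure D2:**
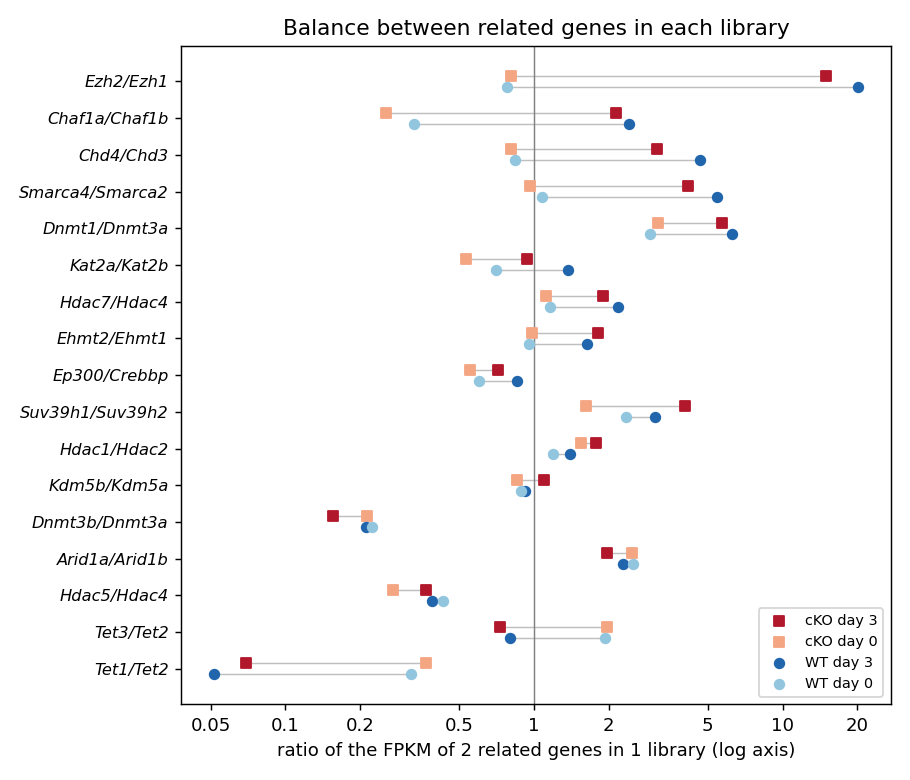
Ratio of the FPKM of 2 related genes within each library (log axis), for 17 pairs in order of how far the ratio differed between the days in WT cells. Squares are cKO and circles WT libraries, dark for day 3 and pale for day 0, and the vertical line marks equal levels. Ezh2/Ezh1 stood at 14.9 in cKO and 20.2 in WT cells on day 3, against 0.808 in cKO and 0.777 in WT cells on day 0, and Tet3/Tet2 crossed the line the other way.

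Other subunits of the same complexes went different ways. Smarcc1 (BAF155), a core subunit, had 65.9 FPKM on day 3 and 19.5 FPKM on day 0 in cKO cells and 64.5 FPKM on day 3 and 19.5 FPKM on day 0 in WT cells and rose, with log2 ratios of 1.75 in cKO and 1.72 in WT cells. Arid1a, the DNA-binding subunit of BAF, had 28.1 FPKM on day 3 and 50.9 FPKM on day 0 in cKO cells and 28.3 FPKM on day 3 and 46.8 FPKM on day 0 in WT cells. Arid1b, the alternative to Arid1a, had 14.3 FPKM on day 3 and 20.6 FPKM on day 0 in cKO cells and 12.4 FPKM on day 3 and 18.7 FPKM on day 0 in WT cells. Both ARID subunits were lower on day 3 in each genotype. Chd1, which acts on transcribed genes, had 50.2 FPKM on day 3 and 37.1 FPKM on day 0 in cKO cells and 46.9 FPKM on day 3 and 34.3 FPKM on day 0 in WT cells, near the median gene. Of 24 other remodeller genes measured, 3 rose in each genotype and none fell. Beside them, 17.1% of all genes rose and 6.99% fell in cKO cells, and 18.8% rose and 8.98% fell in WT cells. The 3 remodeller genes were Ruvbl2 (2.26 in cKO and 2.59 in WT cells) and Ruvbl1 (2.36 in cKO and 2.38 in WT cells), the paired AAA+ ATPases of INO80 and SRCAP, and Actl6a, an actin-like BAF subunit (1.53 in cKO and 1.64 in WT cells). The arginine methyltransferases both rose. Prmt1, the main source of asymmetric dimethylarginine, had 78.9 FPKM on day 3 and 16.7 FPKM on day 0 in cKO cells and 96.7 FPKM on day 3 and 16.4 FPKM on day 0 in WT cells, with log2 ratios of 2.23 in cKO and 2.55 in WT cells. Prmt5, which makes symmetric dimethylarginine, had 36.1 FPKM on day 3 and 7.94 FPKM on day 0 in cKO cells and 47.3 FPKM on day 3 and 10.3 FPKM on day 0 in WT cells, with log2 ratios of 2.17 in cKO and 2.18 in WT cells. Of 6 other genes of that family none rose in either genotype, and Prmt2 fell in cKO cells (-3.41, against 0.32 in WT cells), where its day 0 level stood far above those of the other libraries.

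**Figure D3:**
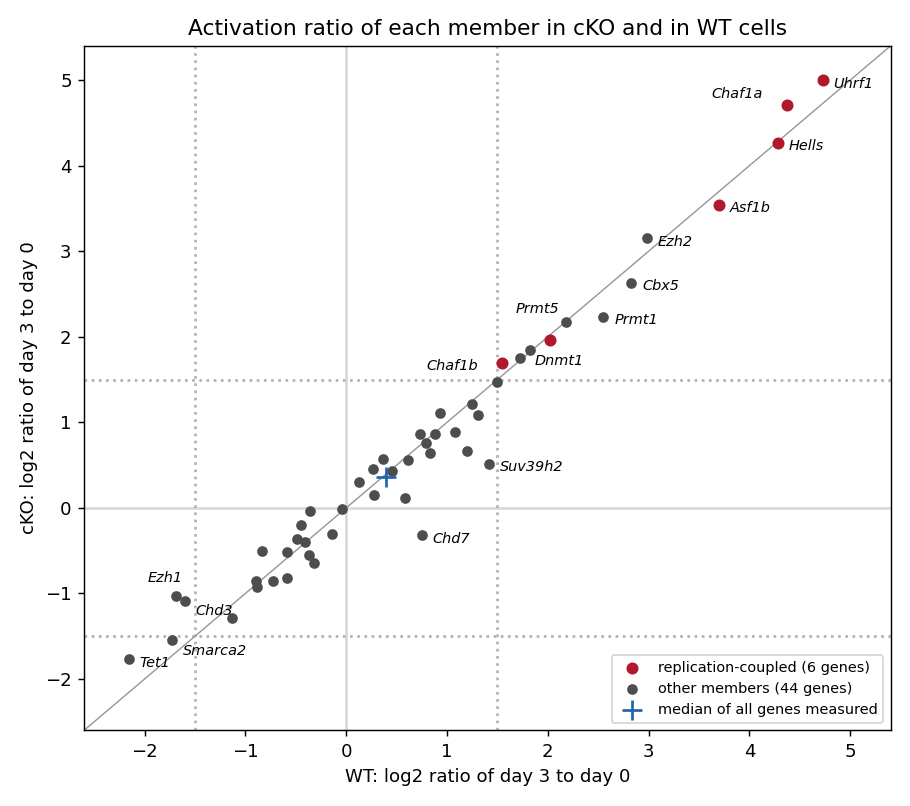
Log2 ratio of day 3 to day 0 of each member in cKO cells (vertical axis) and in WT cells (horizontal axis). Red points are the 6 replication-coupled members, grey points the other 44, the cross is the median of all genes (0.36 in cKO, 0.40 in WT), dotted lines stand at 1.5 and -1.5 and the diagonal marks equal ratios. Chd7 alone has opposite signs.

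The comparison of cKO with WT cells asked whether loss of CIC altered these genes. No member passed the size rule on day 3, where 2.03% of 11181 genes did, or on day 0, where 2.31% of 11214 did. A count of 0 of 50 is close to these shares. On day 3 the log2 ratio of cKO to WT ran from -0.65 for Chd7 to 0.63 for Tet1 with a median of -0.01, and on day 0 from -0.47 for Chaf1a to 0.44 for Hdac4 with a median of 0.02. The median of all genes was -0.05 on day 3 and 0.00 on day 0. Under 0.5 in size were 46 of 50 members on day 3, against 85.2% of genes, and 50 of 50 on day 0, against 86.9% of genes. Well expressed genes vary less on this scale: among those that reached an FPKM of 10, 43 of 45 members and 91.9% of genes were under 0.5 on day 3, and 39 of 39 members and 95.7% of genes on day 0. The values of cKO and WT cells come from tables that were normalized separately, and putting them on 1 scale moved every such ratio by -0.02 on day 3 and -0.01 on day 0.

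The 4 members past 0.5 on day 3 were Tet1 (0.63), Chd3 (0.60), Suv39h2 (-0.54) and Chd7 (-0.65). Tet1 and Chd3 fell in WT cells, and the other members that fell there, Ezh1 (0.40) and Smarca2 (0.34), also had ratios of cKO to WT above 0 on day 3. The WT day 3 library enters both the choice of these 4 genes and their ratio of cKO to WT, so the shared sign is a description only. Some other members with lower levels on day 3 than on day 0 in both genotypes had ratios below 0. These were -0.01 for Arid1a, -0.02 for Kdm6b, -0.05 for Sirt1 and -0.16 for each of Ep300 and Kdm4a. The rest of the members lower on day 3 in both genotypes had ratios above 0, from 0.015 for Ehmt1 to 0.32 for Kat2b. The WT day 3 library enters that choice as well. On day 0 the ratio of cKO to WT was 0.25 for Tet1, 0.081 for Chd3, -0.25 for Ezh1 and 0.16 for Smarca2. Beside these, the myeloid markers of the day 0 libraries summed to 71.6 FPKM in cKO and 233 FPKM in WT cells, and their part in the day 3 to day 0 ratios was not tested. Of all genes measured, 42.5% had a ratio of cKO to WT above 0 on day 3 and 50.3% on day 0. The replication-coupled members had 5 of 6 ratios of cKO to WT below 0 on day 3 (median -0.11) and 6 of 6 on day 0 (median -0.16). The S phase genes had 18 of 20 below 0 on each day and medians of -0.13 on day 3 and -0.26 on day 0, and the dividing-cell markers summed to 26.1 FPKM in cKO and 36.7 FPKM in WT cells on day 0. The part of the dividing cells in these ratios was not tested. All 9 remodellers had a ratio above 0 on day 0, from 0.0039 for Smarca4 to 0.42 for Chd7, and 6 of 9 on day 3.

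**Figure D4:**
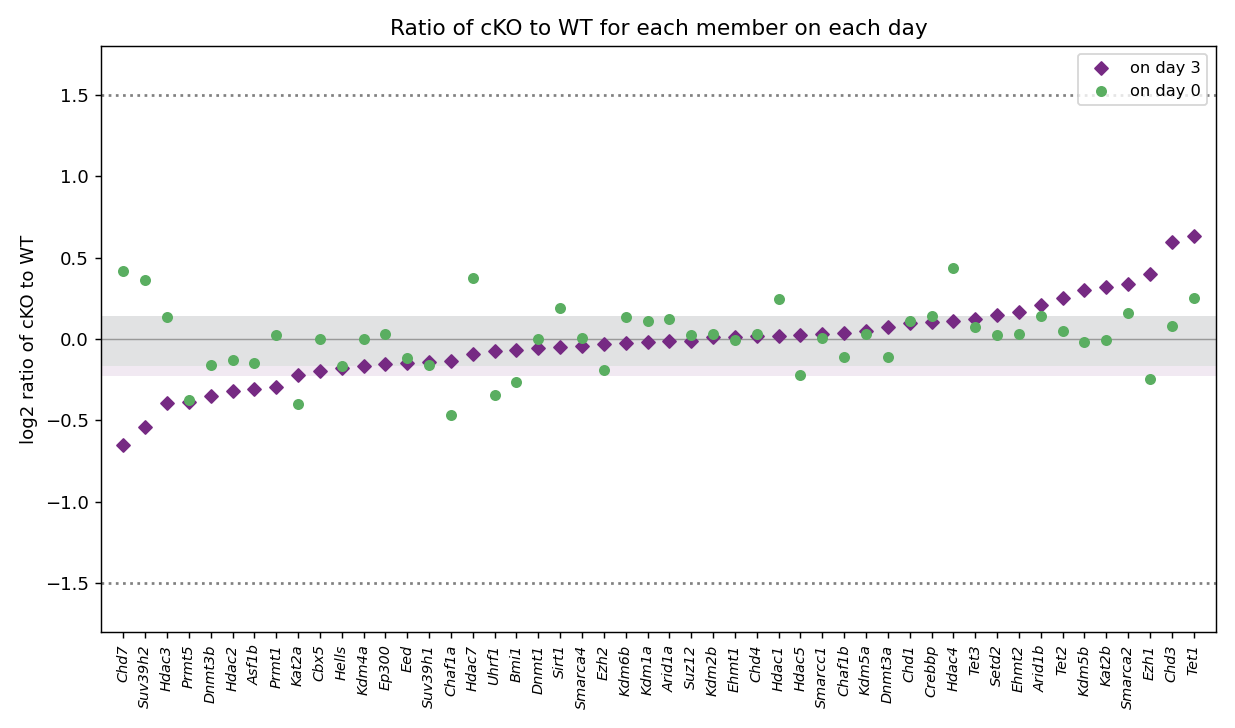
Log2 ratio of cKO to WT for each of the 50 members, on day 3 (purple diamonds) and day 0 (green circles), in order of the day 3 value. Shaded bands run between the quartiles of all genes on each day, and dotted lines stand at 1.5 and -1.5. Every point lies well inside the dotted lines, with Chd7 lowest and Tet1 highest on day 3.

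Chd7, a remodeller found at enhancers, was the only member whose day 3 to day 0 ratio had opposite signs in the 2 genotypes. It lies at chr4:8690406-8868841 (GRCm38) and had 31.5 FPKM on day 3 and 39.4 FPKM on day 0 in cKO cells, against 49.6 FPKM on day 3 and 29.4 FPKM on day 0 in WT cells. Day 3 was thus the lower day in cKO and the higher in WT cells. The log2 ratio was -0.32 in cKO and 0.75 in WT cells, a difference of -1.07, where the quartiles of 11307 genes ran from -0.25 to 0.21. A difference over 1 in size was seen in 1 of 50 members (2.0%) and in 6.15% of these genes. Genes near the FPKM minimum are among these, and the share among genes as strong as Chd7 was not taken. Chd7 stood at percentile 2.0 of this difference. After Chd7 came Suv39h2 at -0.90 and Hdac3 at -0.53 on the low side, and Ezh1 at 0.65, Chd3 at 0.52 and Tet1 at 0.39 on the high side. Under 0.25 in size were 36 of 50 members, against 52.7% of genes. That share too covers weakly expressed genes, which vary more, so it does not show that the members were unusually stable.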

How the data were processed

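RNA-seq of 4 libraries was analysed, 1 for each genotype and day. Per the sources, reads were mapped with TopHat 2.0.10 and expression was estimated with Cufflinks 2.1.1 on mm9 RefSeq. CASAVA is also named in the submitters' processing notes. The authors deposited FPKM values per locus in 4 tables, and the starts and ends of the loci equal those of GRCm38.p6 genes far more often than mm9 genes, so coordinates are given as GRCm38. Each library's FPKM was read from the 2 tables that set day 3 against day 0 in a single genotype. The other 2 tables hold weighted means of libraries and were used only for a common scale (an alternative added once the data had been seen). The authors' fold changes, p-values and q-values, and another 16 files of functional annotation, were left out. FPKM is relative to a library's own total, and the tables were normalized separately.

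A name on several loci took the locus of highest mean FPKM. The 7265 loci with no gene name (23.3%) were left out. Log2 ratios used FPKM + 0.1, which understates the change of low genes, and were taken for genes that reached an FPKM of 1 in a library of the comparison. The size threshold was 1.5. Counting strand is not given in the sources used here, so reads of a gene and its antisense partner cannot be told apart, and 14 members overlap another named locus. The members and gene lists were chosen with earlier results of these data known. The rule was to describe in full a member that passed the size rule in any comparison or was replication-coupled. It also took in members with the highest or lowest activation ratio of their role and those in a listed pair. Up to 2 genes with the largest WT ratios were to be named from each other list. Members outside this rule were described too, and further list genes past the size rule were named after their values were seen. The alternatives were a size threshold of 1, pseudocounts of 0.01 and 1, ratios centred on the median gene, sums over loci, no FPKM minimum or 1 of 5, and a wider replication-linked group. The ratio step was tested on simulated data. Python 3.11.15, numpy 2.4.6, pandas 2.3.3 and matplotlib 3.10.9 were used.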

Additional observations from a re-analysis of the deposited data

Results flagged for a closer look

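Chd7 stood out because its day 3 to day 0 ratio had opposite signs in the genotypes, each with 1 library per day. The log2 ratio was -0.32 in cKO and 0.75 in WT cells, and the cKO minus WT difference was -1.07. The difference was not tested.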

How the results depend on the processing

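With 1 library per group, no replicate could be left out. No paired analysis was possible because each group holds a single library and no test was run. The counts of members past the size rule, both directions together, stayed within 1.5 times their values under all 8 alternatives, and no member past the rule changed sign. The replication-coupled group was also defined more widely, with Ezh2, Cbx5, Suv39h1 and Suv39h2 added to make 10 genes. Its difference from the other 40 members was then 2.84 in cKO and 2.71 in WT cells, against 3.68 in cKO and 3.67 in WT cells with 6 genes. The added genes had smaller ratios than Uhrf1, Hells, Chaf1a and Asf1b. Ezh2 and Cbx5 had larger ratios than Dnmt1 and Chaf1b in both genotypes. Centring on the median gene left 9 members that rose and 3 that fell in cKO cells, and 9 that rose and 5 that fell in WT cells. Chaf1b, Smarcc1 and Suv39h1 then missed the threshold in both genotypes, and Kdm6b passed it (-1.65 in cKO and -1.53 in WT cells). With a pseudocount of 1 no member fell in cKO cells, Tet1 standing at -1.36 and Smarca2 at -1.49. Chaf1b in WT cells was borderline, at 1.44 with that pseudocount and 1.49 on the common scale, and Kdm2b there passed at 1.501 with a pseudocount of 0.01. At a size threshold of 1, 16 members rose and 5 fell in cKO cells and 18 rose and 5 fell in WT cells, and still none differed between cKO and WT cells on either day. An FPKM minimum of 5 removed Tet1 from the WT comparison. Without read totals the counting error of a low value such as that of Tet1 on day 3 cannot be given, and without replicates no ratio between cKO and WT cells can be set against biological spread.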

Other observations

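Outside the set, Prmt2, an arginine methyltransferase of the same family as Prmt1, had 3.93 FPKM on day 3 and 42.7 FPKM on day 0 in cKO cells, against 3.26 FPKM on day 3 and 2.59 FPKM on day 0 in WT cells. Only the cKO day 0 library was high, and the log2 ratio of cKO to WT was 0.27 on day 3 and 3.99 on day 0. Pcgf1, a PRC1 subunit, had 2.84 FPKM on day 3 and 3.04 FPKM on day 0 in cKO cells, against 2.83 FPKM on day 3 and 0.790 FPKM on day 0 in WT cells, with a log2 ratio of cKO to WT of 0.0034 on day 3 and 1.82 on day 0. These were the only genes of the other lists past the size threshold between cKO and WT cells, 2 of 156 measured on day 0 and 0 of 155 on day 3. Of all genes measured, 2.31% passed it on day 0 and 2.03% on day 3. Prmt2 and Pcgf1 were both named after their values were seen.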
